A study of Mus musculus with 8 samples.

Results

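The subunits of the mitochondrial respiratory chain and of ATP synthase were followed across 2 pluripotent states of mouse cells. Genes were taken by a rule on their symbols: the Nduf genes whose next letter is a, b, c, s or v and is followed by a digit, Sdha to Sdhd, the Uqcr genes, Cyc1, Cycs, the Cox4 to Cox8 genes and the Atp5 genes. This gave 86 of the 23699 entries listed in each library, 37 for complex I, 4 for complex II, 10 for complex III with cytochrome c, 18 for complex IV and 17 for complex V, the ATP synthase. All 86 had 1 locus each. Subunits encoded in mitochondrial DNA, assembly factors and the acyl carrier subunit Ndufab1 do not match these symbols. Some symbols carry older assignments: Ndufa4 is now counted as a subunit of complex IV, and Atp5s and Atp5sl are not structural subunits of the synthase.

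The mEpiSC, epiblast stem cells, stand for the primed epiblast after implantation; they were given FGF2 and passaged in clumps with collagenase. Their libraries came from 3 lines: replicate 1 from EpiSC5, replicates 2 and 3 from EpiSC7, and replicate 4 from EpiSC9. The mESC, embryonic stem cells, stand for the naive inner cell mass; they were given LIF and passaged as single cells with trypsin, with replicates 1 and 2 from ESF122 and replicates 3 and 4 from ESF175/1. Both were kept in Knockout DMEM with KSR on a feeder layer of irradiated MEFs (fibroblasts of mouse embryos), which was removed before RNA extraction, and polyadenylated RNA went into TruSeq libraries. The growth factor, the way of passaging and the state cannot be told apart, and each line belongs to 1 state. Since no label states that libraries of the same line were separate cultures, p-values cover only the spread among these libraries, and that spread may be technical.

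The respiratory chain passes electrons from NADH (complex I) and succinate (complex II) through ubiquinone to complex III, then by cytochrome c to complex IV, cytochrome c oxidase, which reduces oxygen. Complexes I, III and IV pump protons across the inner mitochondrial membrane, and complex V uses the return flow to make ATP. Naive mouse embryonic stem cells are known to use both respiration and glycolysis, and primed cells to rely mainly on glycolysis, with less complex IV in mEpiSC than in mESC.

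Levels are FPKM as deposited (fragments scaled by transcript length and by the mapped fragments of the library). Each difference is mEpiSC minus mESC in units of log2(FPKM + 1), tested with limma over the 11556 genes that reach 1 FPKM in at least 4 libraries, and a gene was called at a Benjamini-Hochberg adjusted p under 0.05. The intervals deposited with the values imply 24800000 to 38600000 fragments per library, and for the 67 tested subunit genes at a mean of 20 FPKM or more the interval's half-width was at a median 4.68% of the value. Against the labels, all 9 naive markers were lower in mEpiSC and 5 of 7 primed markers higher. Of all tested genes 14.2% were lower and 23.1% higher. Of the 9 naive markers, 4 (Zfp42, Tbx3, Prdm14 and Dppa3) were under 1 FPKM in every mEpiSC library. These 4 passed the filter through the mESC libraries alone, so they had to differ and their calls carry no weight. Of 14 fibroblast markers 5 were higher in mEpiSC and none was lower, with summed levels of 431 to 843 FPKM in mEpiSC and 163 to 502 FPKM in mESC. Of these, Vim measured 210 to 350 FPKM in mEpiSC and 55.2 to 130 FPKM in mESC, highest in replicate 4 of both states. Fn1 leaned the other way, at 34.8 to 65.0 FPKM and 40.6 to 114 FPKM. The collagens Col1a1, Col1a2, Col3a1 and Col5a1 were lowest in replicate 4 of both states. Col1a1 measured 159, 84.5, 51.4 and 7.92 FPKM in mEpiSC and 78.4, 9.71, 13.9 and 0.481 FPKM in mESC. Primitive endoderm markers summed to 78.5 FPKM in mEpiSC replicate 1, 12.9 to 20.3 FPKM in the other mEpiSC libraries and 3.05 to 5.52 FPKM in mESC. Trophoblast markers summed to 3.29 to 11.5 FPKM in mEpiSC and 13.6 to 16.7 FPKM in mESC, where Tfap2c alone measured 12.2 to 14.4 FPKM. The part of feeder or other cells in the subunit values was not tested, and in bulk RNA fewer cells of a type cannot be told apart from less RNA per cell.

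The subunit genes leaned lower in mEpiSC, in summed level most so those of complex IV. Together the 86 genes summed to 8229 ± 1789 FPKM in mEpiSC and 9566 ± 1700 FPKM in mESC (SD, n = 4 each), so the mEpiSC sum was 86.0% of the mESC sum. By complex, the mEpiSC sum was 94.5% of the mESC sum for complex I, 96.2% for complex II, 81.2% for complex III with cytochrome c, 77.4% for complex IV and 85.0% for complex V. The spread between libraries was wide, and replicate 4 was the highest library of its state for all 5 complexes. In the replicate 4 pair alone the percentages were 100.3, 107.1, 78.0, 86.4 and 85.6 in the same order, and in replicates 1 to 3 they were 91.8, 91.6, 82.8, 73.1 and 84.8. Within replicates 1 to 3 the complex IV sums were 1254, 1505 and 1429 FPKM in mEpiSC and 1783, 1907 and 2039 FPKM in mESC, without overlap between the states. The sums of complex III (822 to 947 FPKM in mEpiSC and 975 to 1160 FPKM in mESC) did not overlap in these replicates either. Nor did those of complex V (2365 to 2661 FPKM and 2813 to 3052 FPKM), while those of complexes I and II did. A sum is weighted to its most abundant genes. In complex V, Atp5b averaged 690 FPKM in mEpiSC and 817 FPKM in mESC replicates 1 to 3, Atp5a1 344 and 513, and Atp5g3 369 and 438. Gene by gene, 7 of 9 tested genes were lower without overlap in complex III, 10 of 14 in IV and 4 of 15 in V. Of all tested genes 25.3% were lower without overlap in these replicates.

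**Figure D1:**
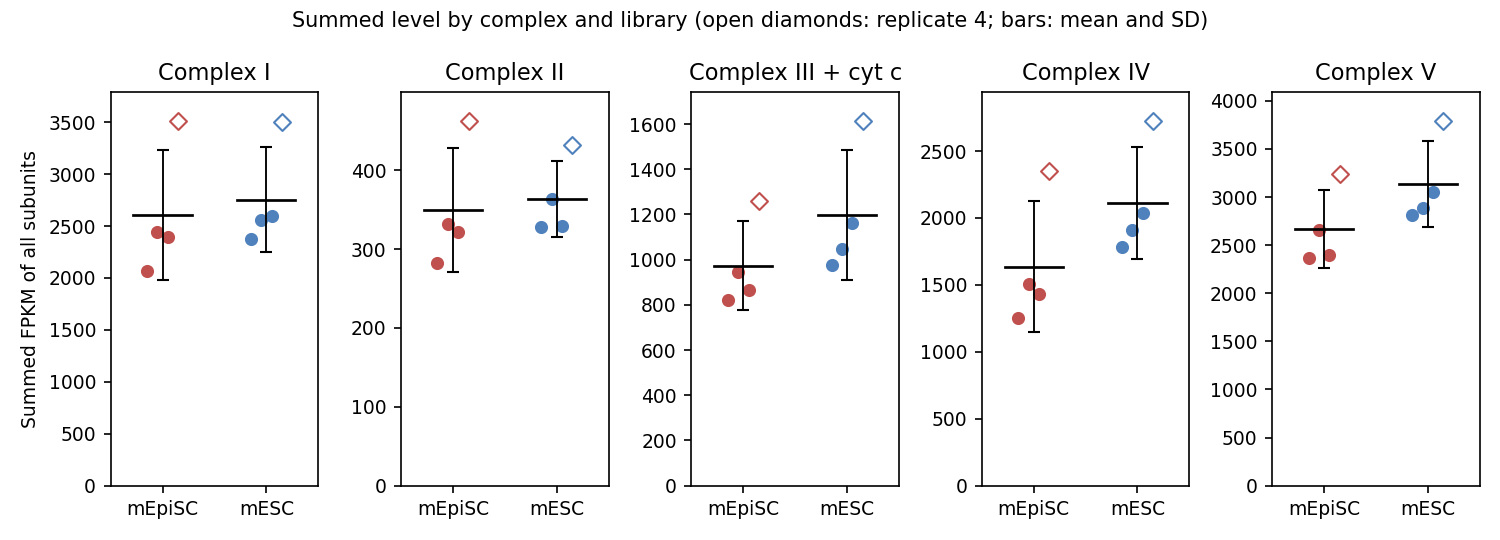
Summed FPKM of all subunit genes of each complex (vertical axes, each from 0) in the 4 mEpiSC and 4 mESC libraries; points are libraries, open diamonds replicate 4, and bars the mean and SD. In complexes III, IV and V the 3 mEpiSC points of replicates 1 to 3 lie below the 3 mESC points, while the replicate 4 diamonds stand above the other libraries of both states.

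Of the 86 genes 77 passed the filter and were tested, 35 of complex I, 4 of II, 9 of III, 14 of IV and 15 of V. In mEpiSC 9 of the 77 fell and 0 rose (limma, Benjamini-Hochberg adjusted p under 0.05), against 14.2% of all tested genes lower and 23.1% higher. The 9 are 11.7% of the tested subunits, a share of lower calls close to that of all genes, so their number sets the subunits apart in no way. One of them, Cox7b2, was listed at 0 in every mEpiSC library and passed the filter through the mESC libraries alone, so its call carries no weight, and without it 8 of 76 fell. At an unadjusted p under 0.05, 14 of the 77 were lower and 0 higher, against 18.5% and 28.7% of all genes. The median log2 difference was −0.15 over the 77 subunit genes and 0.08 over all tested genes, and 55 of the 77 (71.4%) were negative against 43.9% of all genes. The values of the 4 mEpiSC and 4 mESC libraries did not overlap for 7 of the 77 (6 of 76 without Cox7b2), all lower in mEpiSC, where 14.9% of all genes were lower and 22.2% higher without overlap.

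Of the calls, 5 were among the 14 tested genes of complex IV, at a median of −0.57 (4 of 13 and −0.50 without Cox7b2). Complex III followed, with 2 of 9 lower at a median of −0.40. Complex I had 1 of 35 lower (median −0.10), complex V 1 of 15 (median −0.14) and complex II 0 of 4 (median −0.05; also 0 at an unadjusted p under 0.05). Of all tested genes 14.2% were lower in the same fit, and differences between complexes were not tested. Ndufa4 and its paralog Ndufa4l2, kept in complex I by their symbols, differed by −0.09 and 0.10. Counting them in complex IV would make its median less negative. It would then still be more negative than that of complex III with Cox7b2 kept, but not with Cox7b2 left out. With the replicate number as a block, which pairs the libraries, 20 genes were lower and 3 higher, against 17.8% of all genes lower and 27.3% higher. With 1 mean per cell line, 3 lines against 2, no subunit gene other than Cox7b2 was called, against 4.82% of all genes lower and 7.49% higher. In that fit 6 subunit genes (5 without Cox7b2) were lower and 0 higher at an unadjusted p under 0.05, against 11.8% and 20.1% of all genes.

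Without the replicate 4 libraries, 19 of the 77 fell (18 of 76 without Cox7b2) and 0 rose. Of all genes 18.7% were lower and 26.4% higher in that fit. At an unadjusted p under 0.05 the counts were 25 (24 without Cox7b2) and 1, against 22.6% and 31.3% of all genes. By complex the lower calls were 5 of 35 in complex I, 0 of 4 in II, 4 of 9 in III, 9 of 14 in IV (8 of 13 without Cox7b2) and 1 of 15 in V, with medians of −0.13, −0.09, −0.36, −0.67 and −0.17. Of the 9 genes called from all libraries 8 were called again, Cox7b2 among them, the exception being Cox7a1. The 3 mEpiSC and 3 mESC libraries did not overlap for 34 genes lower in mEpiSC (33 without Cox7b2) and 2 higher, against 25.3% and 33.3% of all genes. The median over the 77 was −0.19. Leaving out mEpiSC replicate 4 alone gave 19 lower genes, against 17% of all genes lower and 24.4% higher in that fit. Leaving out any other single library gave 4 to 7, against 10.5% to 13.1% of all genes, with 4 without mESC replicate 3 and 5 without mEpiSC replicate 1 or mEpiSC replicate 3.

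**Figure D2:**
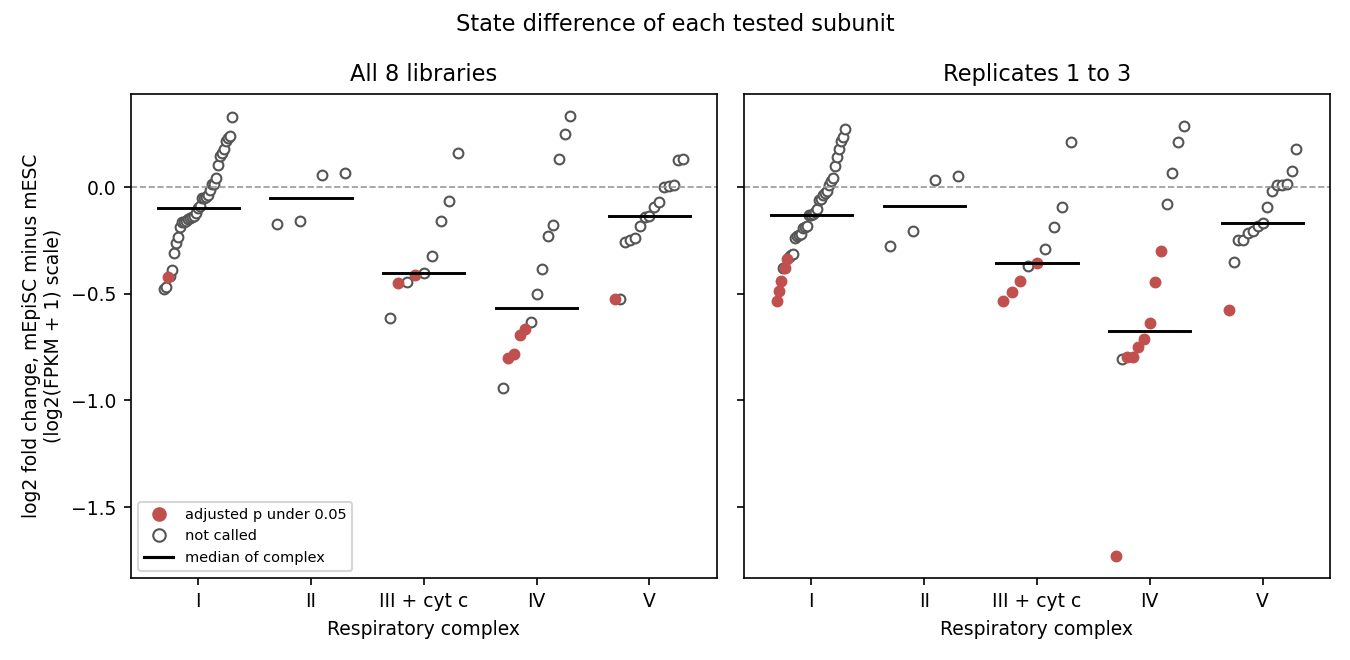
Log2 difference, mEpiSC minus mESC, of each tested subunit gene (vertical axis) by complex, from all 8 libraries (left) and from replicates 1 to 3 (right); filled points passed an adjusted p of 0.05 and bars are medians of each complex. Cox7b2, listed at 0 in mEpiSC, is not drawn but counts in the complex IV median. Filled points lie only below 0, mostly in complexes III and IV, and more are filled without replicate 4.

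Promoters are shown for 4 genes to set beside the levels: Cox5a as a called member of complex IV, Cox7b2 because it was listed at 0 in mEpiSC, Uqcrc1 because it holds 2 matches to the motif of NRF1, a regulator of respiratory genes, and Sdhd because it holds matches to 2 motifs. Each is the RefSeq window of 250 bases before to 50 after the start of the gene, on build GRCm38.p6 and read 5′ to 3′ on the strand of the gene, with motif matches in capitals. Cox5a lies at chr9:57520982-57521281 (plus strand), Uqcrc1 at chr9:108936398-108936697 (plus strand), Sdhd at chr9:50603800-50604099 (minus strand) and Cox7b2 at chr5:71548156-71548455 (minus strand).
Cox5a: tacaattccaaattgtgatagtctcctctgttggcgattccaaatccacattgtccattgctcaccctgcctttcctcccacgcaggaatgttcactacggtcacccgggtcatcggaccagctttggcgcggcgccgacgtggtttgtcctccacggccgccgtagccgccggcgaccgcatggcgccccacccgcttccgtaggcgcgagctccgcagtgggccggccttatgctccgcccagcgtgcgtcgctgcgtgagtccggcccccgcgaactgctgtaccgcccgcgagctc
Uqcrc1: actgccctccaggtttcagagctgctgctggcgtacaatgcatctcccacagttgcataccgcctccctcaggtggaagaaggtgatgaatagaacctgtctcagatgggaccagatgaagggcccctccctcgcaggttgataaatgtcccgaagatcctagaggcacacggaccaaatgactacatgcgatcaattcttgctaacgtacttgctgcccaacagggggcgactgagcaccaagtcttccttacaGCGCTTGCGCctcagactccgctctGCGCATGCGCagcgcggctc
Sdhd: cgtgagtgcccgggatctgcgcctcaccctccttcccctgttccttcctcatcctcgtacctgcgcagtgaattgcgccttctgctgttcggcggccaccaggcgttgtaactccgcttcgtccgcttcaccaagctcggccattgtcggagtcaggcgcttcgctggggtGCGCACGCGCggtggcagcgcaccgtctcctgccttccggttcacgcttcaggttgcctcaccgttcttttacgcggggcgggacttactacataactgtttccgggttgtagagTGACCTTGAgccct
Cox7b2: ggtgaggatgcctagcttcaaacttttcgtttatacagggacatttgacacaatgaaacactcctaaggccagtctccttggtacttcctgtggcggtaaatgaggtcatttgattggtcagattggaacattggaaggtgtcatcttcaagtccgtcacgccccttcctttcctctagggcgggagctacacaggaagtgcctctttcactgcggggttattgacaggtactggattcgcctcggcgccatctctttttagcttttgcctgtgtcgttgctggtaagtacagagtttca

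In the Uqcrc1 window GCGCTTGCGC and GCGCATGCGC begin 5 and 30 bases after the listed start. In the Sdhd window GCGCACGCGC begins 79 bases before the start, and TGACCTTGA, the reverse complement of the estrogen-related receptor element, begins 36 bases after it. The Cox5a and Cox7b2 windows hold none of the 4 motifs searched. These were GCGCA followed by any base and GCGC for NRF1, TCAAGGTCA for estrogen-related receptors, CCGGAAGT for ETS factors such as GABP and AAGATGGCG for YY1, on both strands, and no match overlapped one of another motif. Windows were matched for 70 of the 86 genes. The NRF1 motif was in a window of 17 of these 70 (24.3%) against 5.19% of 27025 genes, the YY1 motif in 8 (11.4%) against 1.64%, the ETS motif in 5 (7.14%) against 4.31% and the receptor element in 2 (2.86%) against 0.466%. Of the 6 matched genes that fell in mEpiSC, Cox7b2 among them, 0 held the NRF1 motif, against 14 of 58 matched genes with no call. The counts were 1 and 4 for the ETS motif, 0 and 8 for the YY1 motif and 0 and 2 for the receptor element. With 6 genes these counts cannot tell the called genes from the others, and no difference was tested. A match is a description of letters and not a measured site.

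Complex I takes electrons from NADH through a core of subunits that carry flavin and iron-sulfur clusters, surrounded by accessory subunits. The complex I gene that passed the test was Ndufs1. Ndufs1, the largest core subunit and carrier of iron-sulfur clusters, measured 45.4, 46.2, 42.4 and 45.8 FPKM in mEpiSC libraries 1 to 4, against 55.7, 60.1, 59.1 and 67.3 FPKM in mESC libraries 1 to 4. Every mEpiSC library lay below every mESC library, and replicate 4 of mEpiSC was not raised. The log2 difference was −0.42 (SE 0.10; limma, adjusted p = 0.0121). Its call was lost in 1 of 21 other settings, the fit with 1 mean per line (adjusted p = 0.116).

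Ndufv1, which binds NADH and the flavin, measured 45.6, 56.2, 51.6 and 76.3 FPKM in mEpiSC and 75.8, 73.5, 73.3 and 92.4 FPKM in mESC. Only mEpiSC replicate 4 reached the range of the mESC libraries. The log2 difference of −0.47 missed the threshold with all libraries (adjusted p = 0.0541) and passed with the replicate block (0.0128) and in replicates 1 to 3 (−0.53; adjusted p = 0.00584). The core subunits Ndufs7, Ndufs8 and Ndufv2 differed by −0.12 to −0.05 on the log2 scale with adjusted p from 0.768 to 0.904.

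Of the 28 tested accessory subunits of complex I, 0 were called from all libraries (0 higher and 1 lower at an unadjusted p under 0.05), and 17 differences were negative. Ndufb2 measured 45.4, 48.0, 49.1 and 90.7 FPKM in mEpiSC and 67.2, 63.0, 64.1 and 107 FPKM in mESC. Replicate 4 stood far above the others in both states, and among the other 6 libraries every mEpiSC value lay below every mESC value. The difference was −0.39 with all libraries (adjusted p = 0.264), −0.44 in replicates 1 to 3 (adjusted p = 0.0056) and past the test with the block (adjusted p = 0.0152). Ndufb6 and Ndufs6, the zinc-binding subunit, likewise passed without replicate 4 (−0.48, adjusted p = 0.0267, and −0.34, adjusted p = 0.0348). Ndufb2 and Ndufb6 share 33.5% and 34.1% of their transcript windows of 50 bases with other genes.

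A few complex I genes were higher. Ndufa2 measured 108, 127, 126 and 194 FPKM in mEpiSC and 87.1, 121, 93.1 and 137 FPKM in mESC, and Ndufa8 measured 45.7, 50.3, 44.2 and 71.4 FPKM in mEpiSC and 38.4, 41.7, 38.4 and 61.2 FPKM in mESC. The states overlapped for both: mESC replicates 2 and 4 of Ndufa2, and mESC replicate 4 of Ndufa8, lay above the lowest mEpiSC value. The differences, 0.33 and 0.23, passed the test only in some fits: with the replicate block (adjusted p = 0.0363 and 0.049) but not in the fit of all libraries (0.257 and 0.399) or of replicates 1 to 3 (0.161 and 0.0687). Ndufa5 went the other way, at 48.3, 61.3, 48.2 and 53.0 FPKM in mEpiSC and 60.5, 62.6, 75.4 and 101 FPKM in mESC (log2 −0.48, adjusted p = 0.0601; 0.0488 with the block).

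Ndufa4 and its paralog Ndufa4l2, a gene known to be induced in hypoxia, differed in level and in spread. Ndufa4 measured 233, 250.1, 253 and 294 FPKM in mEpiSC and 243, 245, 263 and 355 FPKM in mESC, a log2 difference of −0.09 (adjusted p = 0.682). Ndufa4l2 measured 3.06, 16.6, 13.8 and 46.7 FPKM in mEpiSC and 18.5, 8.05, 12.2 and 15.3 FPKM in mESC. Its lowest and its highest value were both in mEpiSC, in EpiSC5 and EpiSC9, and its difference of 0.10 turned to −0.38 without replicate 4, with no call in either fit (adjusted p = 0.916 and 0.613).

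Complex II, succinate dehydrogenase, is the entry point from the TCA cycle and the only complex here with all of its subunits encoded in the nucleus. None of its 4 genes was called from all libraries. Sdha, the flavoprotein, measured 75.1, 89.3, 81.1 and 107 FPKM in mEpiSC and 91.9, 101, 90.5 and 112 FPKM in mESC, and Sdhb, the iron-sulfur subunit, 50.2, 60.6, 63.0 and 88.5 FPKM in mEpiSC and 53.4, 59.0, 56.7 and 80.7 FPKM in mESC. The membrane anchor Sdhc measured 69.6, 82.6, 78.9 and 109 FPKM in mEpiSC and 70.3, 72.6, 79.2 and 101 FPKM in mESC, and the anchor Sdhd 87.1, 99.1, 98.7 and 158 FPKM in mEpiSC and 113, 131, 103 and 137 FPKM in mESC. The states overlapped for all 4 genes. The log2 differences and their 95% intervals were −0.17 (−0.49 to 0.14) for Sdha, 0.06 (−0.38 to 0.50) for Sdhb, 0.07 (−0.32 to 0.45) for Sdhc and −0.16 (−0.60 to 0.28) for Sdhd, with adjusted p of 0.37, 0.844, 0.795 and 0.559. In replicates 1 to 3 Sdha and Sdhd were lower in every mEpiSC library than in every mESC library, at −0.21 and −0.28 (adjusted p = 0.131 and 0.0925). The same held for 25.3% of all tested genes. With median ratio scaling added in those replicates both were called lower (adjusted p = 0.0302 and 0.0221). That setting was added after the values were seen, and 22.4% of all genes were called lower in it.

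Complex III, the cytochrome bc1 complex, hands electrons from ubiquinol to cytochrome c, and 8 of its 9 tested genes (cytochrome c included by the symbols, though Cycs itself was not tested) had negative differences. Uqcr10 and Uqcr11, small accessory subunits, fell. Uqcr11 measured 34.2, 42.5, 41.1 and 30.6 FPKM in mEpiSC and 47.3, 50.8, 53.1 and 51.6 FPKM in mESC, with no overlap and with the lowest value in mEpiSC replicate 4 (log2 −0.45, SE 0.13; adjusted p = 0.0231). Uqcr10 measured 136, 145, 139 and 191 FPKM in mEpiSC and 186, 188, 220.4 and 217 FPKM in mESC, where mEpiSC replicate 4 lay among the mESC values (log2 −0.41, SE 0.14; adjusted p = 0.0472). The Uqcr10 call was lost in 11 of 21 other settings, among them the omission of any single library other than mEpiSC replicate 4, with adjusted p from 0.0672 to 0.126. In replicates 1 to 3 its difference was −0.49 (adjusted p = 0.00782). The Uqcr11 call was lost without mEpiSC replicate 1 or mESC replicate 3 (adjusted p = 0.056 and 0.0669), with the length trend removed (0.164) and with 1 mean per line (0.126).

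The catalytic subunit Cyc1, cytochrome c1, measured 112, 111, 95.6 and 160.1 FPKM in mEpiSC and 144, 159, 159.9 and 289 FPKM in mESC. Only mEpiSC replicate 4 reached the lower mESC values, and mESC replicate 4 stood far above the rest. The log2 difference was −0.61 (adjusted p = 0.077), and it passed with the block (adjusted p = 0.00665) and in replicates 1 to 3 (−0.53; 0.00618). Uqcrc1, a core subunit, measured 79.9, 90.3, 80.2 and 121 FPKM in mEpiSC and 107, 100.4, 135 and 168 FPKM in mESC and passed in the same fits (adjusted p = 0.11 with all libraries, 0.0215 with the block and 0.0321 in replicates 1 to 3). The other catalytic subunit, the Rieske protein Uqcrfs1, differed by −0.06 (adjusted p = 0.875). Uqcrh, the hinge protein, was the exception in sign, at 169, 217, 200.4 and 188 FPKM in mEpiSC and 144, 180.4, 181 and 189 FPKM in mESC (log2 0.16, adjusted p = 0.384). Cycs, cytochrome c itself, was listed at 0.707, 0.480, 0.507 and 1.20 FPKM in mEpiSC and 0.352, 0.497, 0.497 and 1.35 FPKM in mESC, and 28.5% of its transcript windows also occur in other genes, so its level is uncertain.

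Complex IV, cytochrome c oxidase, is built around a core encoded in mitochondrial DNA that is covered by nuclear-encoded subunits, several of which exist as ubiquitous and tissue-restricted paralogs. The lower genes were Cox5a, Cox6c, Cox7a1 and Cox7c, beside Cox7b2 described below, and of the 14 tested genes 11 had negative differences. Cox5a, a matrix subunit early in assembly, measured 145, 163, 156 and 207 FPKM in mEpiSC and 262, 264, 281 and 346 FPKM in mESC. All mEpiSC libraries lay below all mESC libraries, replicate 4 included. The log2 difference was −0.78 (SE 0.15; adjusted p = 0.00433) and −0.80 in replicates 1 to 3 (adjusted p = 0.00122). Cox6c, a transmembrane subunit, measured 78.7, 91.8, 87.5 and 103 FPKM in mEpiSC and 139, 134, 151 and 160.3 FPKM in mESC, again with no overlap (log2 −0.69, SE 0.12; adjusted p = 0.00269). Both kept the call in 20 of 21 other settings and lost it with 1 mean per line (adjusted p = 0.077 and 0.0656). Of their transcript windows 32.0% and 21.1% also occur in other genes, so their levels are uncertain.

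Cox7c and Cox7a1 fell as well. Cox7c measured 11.8, 17.8, 11.0 and 18.3 FPKM in mEpiSC and 21.9, 22.4, 27.3 and 22.4 FPKM in mESC, with no overlap (log2 −0.67, SE 0.18; adjusted p = 0.0195), and 53.0% of its windows occur in other genes. Cox7a1, the paralog known from heart and skeletal muscle, measured 7.72, 14.3, 14.5 and 16.3 FPKM in mEpiSC and 18.3, 17.7, 29.9 and 28.8 FPKM in mESC (log2 −0.80, SE 0.26; adjusted p = 0.0369). The lowest mESC value lay above the highest mEpiSC value by little, and the call was lost in replicates 1 to 3 (adjusted p = 0.0559) and without mEpiSC 1, 2 or 3 or mESC 3 or 4 (adjusted p from 0.0601 to 0.103). Without mEpiSC replicate 3 or mESC replicate 3 the call of Cox7c was lost too (adjusted p = 0.0528 and 0.061). With 1 mean per line the adjusted p was 0.107 for Cox7c and 0.177 for Cox7a1.

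**Figure D3:**
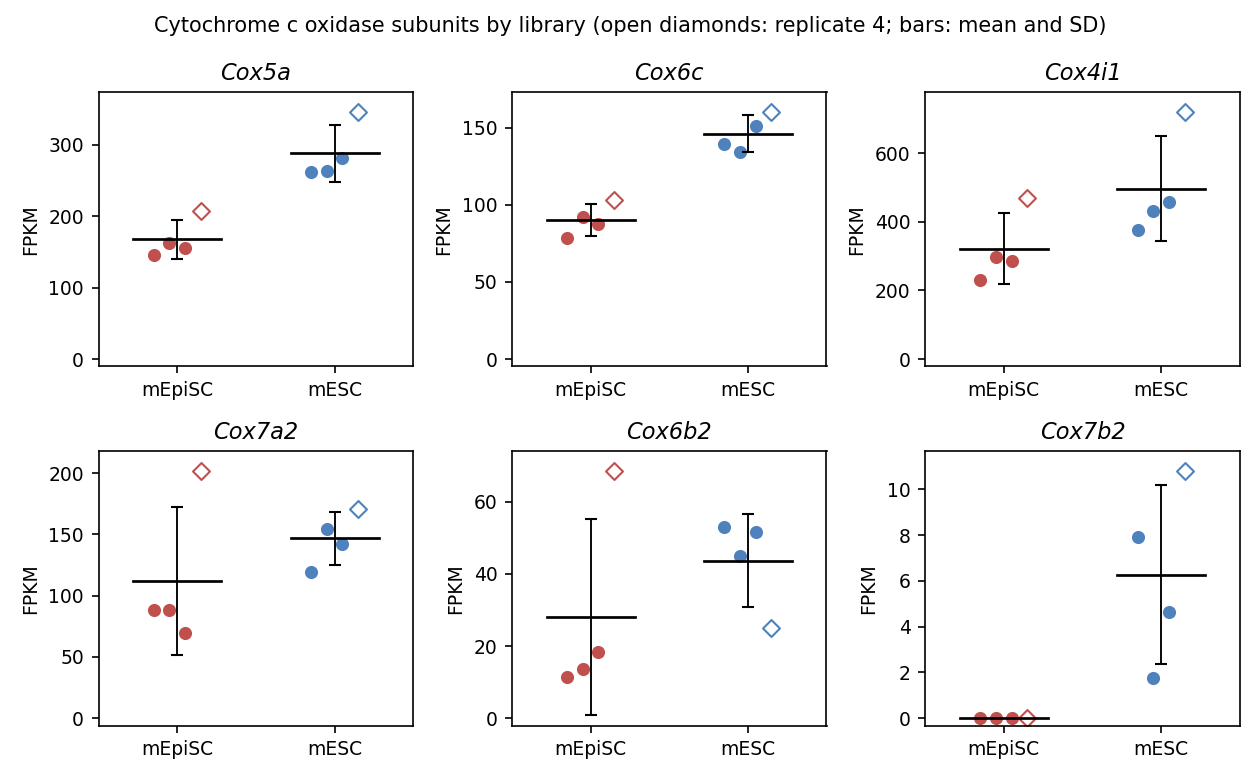
FPKM of 6 cytochrome c oxidase genes (vertical axes, each with its own scale) in the mEpiSC and mESC libraries; points are libraries, open diamonds replicate 4, and bars the mean and SD. Cox5a and Cox6c part by state in all libraries, Cox4i1, Cox7a2 and Cox6b2 only in replicates 1 to 3, and Cox7b2 is listed at 0 in every mEpiSC library.

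Cox7b2, a paralog of Cox7b known from the testis in human, was listed at 0 in all 4 mEpiSC libraries, against 7.92, 1.77, 4.62 and 10.8 FPKM in mESC libraries 1 to 4. It passed the filter on low values through the mESC libraries alone, so it had to differ, and neither a fold nor a test is given. The share of Cox7b2 in the sum of Cox7b and Cox7b2 was 2.70% to 11.1% in the mESC libraries. Cox7b itself measured 64.7, 74.3, 66.9 and 75.8 FPKM in mEpiSC and 63.3, 63.9, 93.9 and 105 FPKM in mESC, with overlap (log2 −0.18, adjusted p = 0.485). Cox8c, another paralog known from the testis, showed the same split below the filter, at 0 in all mEpiSC libraries and 0.844, 0.503, 1.01 and 1.29 FPKM in mESC. Its ubiquitous paralog Cox8a measured 198, 226, 204 and 443 FPKM in mEpiSC and 254, 246, 273 and 449 FPKM in mESC (log2 −0.23, adjusted p = 0.573; −0.30, 0.0392 in replicates 1 to 3). Cox8b, of brown fat, heart and muscle, was listed at 0 in all 8 libraries.

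Cox6b2, the paralog of Cox6b1 known from the testis, gave the largest gap between the fits. It measured 11.5, 13.7, 18.5 and 68.5 FPKM in mEpiSC and 53.1, 44.9, 51.7 and 25.1 FPKM in mESC. In replicates 1 to 3 the mEpiSC values were all far below the mESC values, whereas in replicate 4 the order was the reverse. The log2 difference was −0.94 with all libraries (SE 0.51; adjusted p = 0.175) and −1.73 in replicates 1 to 3 (SE 0.17; adjusted p = 0.000803). Its share of the Cox6b pair was 4.79% to 6.51% in mEpiSC libraries 1 to 3 and 16.5% in mEpiSC replicate 4, and 16.0% to 22.4% in mESC libraries 1 to 3 and 8.52% in mESC replicate 4. Cox6b1 leaned the other way, at 226, 273, 265 and 345 FPKM in mEpiSC and 184, 236, 242 and 269 FPKM in mESC (log2 0.25, adjusted p = 0.285), and was called higher with the block (adjusted p = 0.0422).

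Cox4i1, the regulatory subunit of the common oxidase, measured 231, 298, 286 and 471 FPKM in mEpiSC and 377, 432, 457 and 721 FPKM in mESC. The mEpiSC library of replicate 4 lay among the mESC values, and the other 3 lay below all of them. Its log2 difference was −0.63 with all libraries (SE 0.26; adjusted p = 0.0861), and it passed with the block (adjusted p = 0.00262) and in replicates 1 to 3 (−0.64; 0.00896). Cox4i2, the paralog known from lung and from hypoxic cells, was listed at 0.325, 0.989, 1.18 and 6.32 FPKM in mEpiSC and 0.360, 0.360, 0.442 and 1.15 FPKM in mESC and was not tested. Its highest value in each state was that of replicate 4. Cox6a1 measured 153, 186, 179 and 275 FPKM in mEpiSC and 234, 237, 232 and 317 FPKM in mESC (log2 −0.38, adjusted p = 0.155; 0.0183 with the block; −0.44, 0.0125 in replicates 1 to 3), and its muscle paralog Cox6a2 stayed at or under 0.222 FPKM in every library.

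Cox7a2, the ubiquitous paralog of Cox7a1, measured 88.4, 88.6, 69.6 and 202 FPKM in mEpiSC and 119.5, 155, 142 and 171 FPKM in mESC. Replicate 4 of mEpiSC was the highest library of all 8, and the other 3 mEpiSC libraries were the lowest. The log2 difference was −0.50 with all libraries (adjusted p = 0.22) and −0.75 in replicates 1 to 3 (adjusted p = 0.00622). Cox7a2l, which helps to join complexes III and IV into supercomplexes, measured 35.5, 51.7, 65.4 and 112 FPKM in mEpiSC and 44.8, 49.2, 47.6 and 87.9 FPKM in mESC, with a log2 difference of 0.13 (adjusted p = 0.79). Its share of the sum with Cox7a2 was 28.6% to 48.4% in mEpiSC and 24.2% to 34.0% in mESC. Cox5b was listed at 3.87, 4.95, 4.55 and 9.05 FPKM in mEpiSC and 3.37, 2.73, 4.44 and 6.18 FPKM in mESC (log2 0.34, adjusted p = 0.366), low for a subunit of every oxidase, with 25.9% of its windows in other genes.

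Complex V couples the proton flow through a membrane rotor to ATP synthesis in the F1 head. The most abundant subunit genes of all were here: Atp5b averaged 834 FPKM over the 8 libraries, Atp5a1 468 and Atp5g3 435. Atp5a1, the alpha subunit of the head, measured 321, 365, 345 and 514 FPKM in mEpiSC and 531, 493, 513 and 663 FPKM in mESC. The mEpiSC library of replicate 4 overlapped the mESC range and the other 3 lay below it (log2 −0.52, SE 0.18; adjusted p = 0.0429; −0.58, 0.00355 in replicates 1 to 3). The call was lost without any single library other than mEpiSC replicate 4 (adjusted p from 0.0597 to 0.111) and with 1 mean per line (0.253). Atp5b, the catalytic beta subunit, measured 624, 782, 665 and 997 FPKM in mEpiSC and 783, 816, 852 and 1149 FPKM in mESC, with overlap between the states (log2 −0.24, adjusted p = 0.36).

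Among the 5 genes of the F1 head (Atp5a1, Atp5b, Atp5c1, Atp5d and Atp5e) the median difference was −0.18, and among the 4 of the peripheral stalk (Atp5f1, Atp5h, Atp5j and Atp5o) it was 0.01, with 0 of the 4 called and 0 at an unadjusted p under 0.05. Atp5f1, the b subunit of the stalk, measured 51.3, 55.9, 54.8 and 73.6 FPKM in mEpiSC and 47.5, 57.3, 56.7 and 74.9 FPKM in mESC (log2 0.00, 95% interval −0.38 to 0.38). The rotor ring is made of subunit c, encoded by 3 genes. Atp5g3 measured 364, 390.4, 353 and 477 FPKM in mEpiSC and 416, 443, 456 and 578 FPKM in mESC (log2 −0.25, adjusted p = 0.221; 0.0326 with the block). Atp5g1 measured 38.7, 37.7, 24.6 and 21.8 FPKM in mEpiSC and 35.1, 39.6, 54.6 and 45.9 FPKM in mESC (log2 −0.52, adjusted p = 0.089), and made up 4.38% to 9.61% of the Atp5g1 and Atp5g3 sum in mEpiSC and 7.36% to 10.7% in mESC. Atp5g2 was listed at 0 to 0.113 FPKM, and 87.4% of its windows occur in other genes.

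Several listed levels were low beside those of the other subunits of the same complex. Of 78 genes, leaving out 8 tissue-restricted paralogs, the 17 that share at least 25% of their transcript windows of 50 bases with other genes had a median level of 19.1 FPKM, and 8 of them were under 10 FPKM. The 18 that share 5% to 25% had a median of 68.9 FPKM and the 43 that share less than 5% a median of 102 FPKM, with 0 and 2 under 10 FPKM. Ndufs5 was listed at less than 1 FPKM in every library (at most 6.27e-05) with 41.2% of its windows shared, Atp5l at 0.0513 to 0.804 FPKM with 84.8% and Ndufb4 at 0.127 to 0.936 FPKM with 37.0%. The windows were compared with transcripts of GENCODE vM21, and the part of shared sequence in these levels was not tested.

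**Figure D4:**
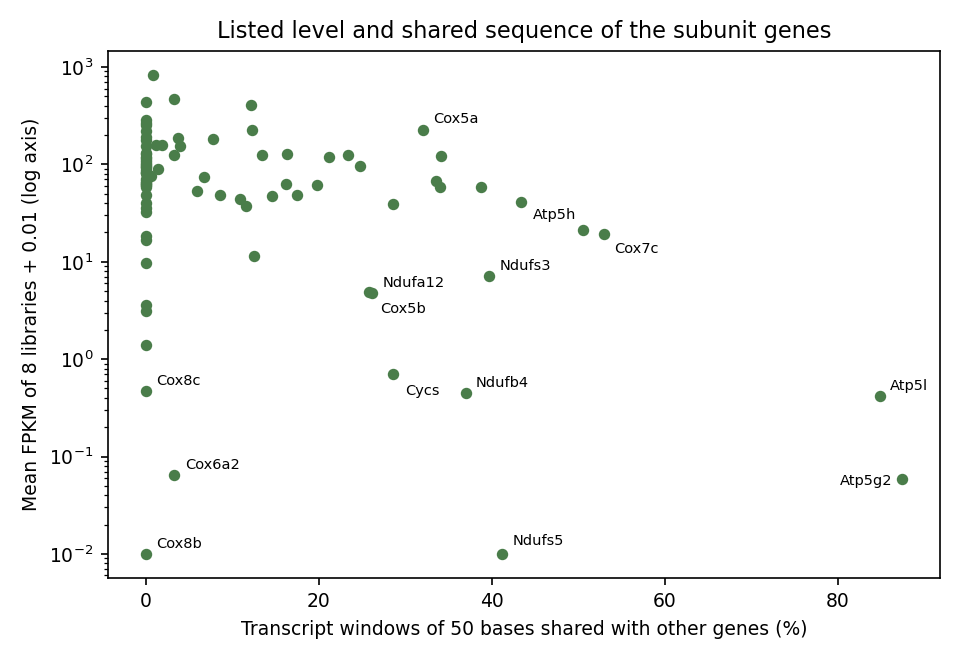
Mean FPKM of the 8 libraries plus 0.01 (vertical log axis) against the percentage of 50-base transcript windows that also occur in other genes (horizontal axis), 1 point for each of the 86 genes. Atp5g2 and Atp5l, with 87.4% and 84.8% shared, are listed under 1 FPKM, as are Ndufs5, Ndufb4 and Cycs, while Cox5a is at a high level with 32.0% shared.

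The replicate 4 libraries were set apart in both states. Relative to the mean of replicates 1 to 3 of the same state, the log2 value in replicate 4 was higher for 70 of the 77 tested subunit genes in mEpiSC (median 0.51) and for 69 in mESC (median 0.41), against medians of 0.07 and 0.03 over the 11217 tested genes with a known transcript length. Over all genes the shift went with transcript length: its median was 0.40 in mEpiSC and 0.30 in mESC for genes under 750 bases, and −0.12 and −0.11 for genes of 3000 bases or more. Of the 77 subunit genes 34 were under 750 bases (medians 0.44 and 0.39) and 27 were of 750 to 1500 bases (0.61 and 0.54, against 0.41 and 0.33 for all genes of that length). The 15 subunit genes of 1500 to 3000 bases shifted by 0.54 and 0.37, against 0.18 and 0.13 for all genes of that length. Cox6b2 shifted furthest apart between the states, by 2.18 in mEpiSC and −0.96 in mESC. The replicate 4 libraries are of the lines EpiSC9 and ESF175/1. EpiSC9 has no other library, whereas ESF175/1 also gave mESC replicate 3.

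**Figure D5:**
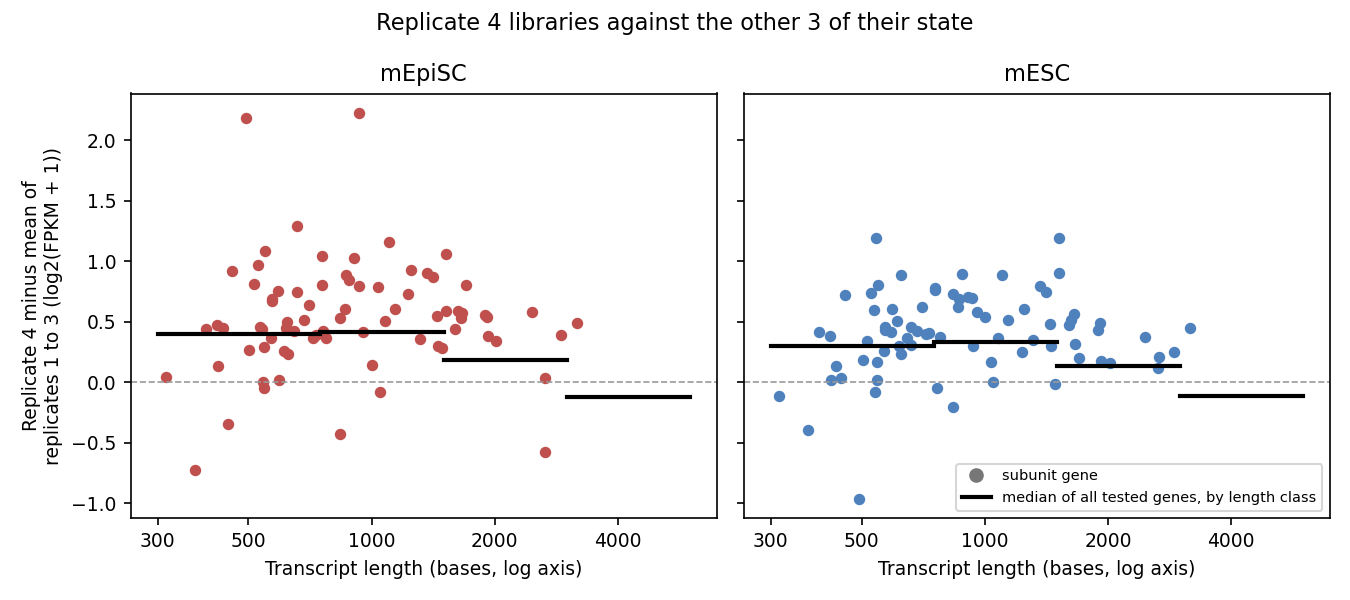
Replicate 4 value minus the mean of replicates 1 to 3 on the log2(FPKM + 1) scale (vertical axis) against transcript length in bases (horizontal log axis), for the tested subunit genes in mEpiSC (left) and mESC (right); black bars are medians of all tested genes in 4 length classes, the last of which has no upper bound. Most subunit genes lie above 0 in both states, with 70 and 69 of 77 positive.

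Counted by replicate number, mEpiSC was the lower state for 61, 51, 58 and 48 of the 77 genes in replicates 1 to 4. In all 4 numbers mEpiSC was lower for 35 genes, Cox7b2 among them (45.5%, against 25.3% of all tested genes), and higher for 6 (7.79%, against 36.1%). By complex, lower in all 4 were 14 of 35 genes in I, 1 of 4 in II, 7 of 9 in III, 8 of 14 in IV and 5 of 15 in V. Removal of the trend with length from each library gave 15 lower and 3 higher subunit genes, against 21.7% and 20.6% of all genes, with 8 of the 9 called genes kept and Uqcr11 lost. The 3 higher genes in that fit were Cox6b1, Ndufa2 and Ndufc2. Median ratio scaling, under which the median log2 difference of all genes was 0.01 in place of 0.08, gave 14 lower and 0 higher genes, against 17.7% and 20.8% of all genes, and the 14 include all 9. With replicate 4 as a batch term 21 were lower and 2 higher, against 20% and 29.5% of all genes, and with quantile normalization 15 were lower and 0 higher, against 19.1% and 18.9%. With no filter 6 of the 86 were lower and 0 higher, against 8.31% and 11.8% of all genes. The 6 include Cox7b2 and Cox8c, both listed at 0 in every mEpiSC library, so these calls carry no weight. Replicates 1 to 3 with median ratio scaling gave 31 lower and 0 higher of the 77, against 22.4% and 24.4% of all genes.

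Other nuclear-encoded mitochondrial genes were set beside the subunits. Of 75 tested genes of the mitochondrial ribosome, which makes the subunits encoded in mitochondrial DNA, 14 fell and 3 rose in mEpiSC, at a median of −0.21, against 14.2% of all genes lower and 23.1% higher, and 2 and 0 were called with 1 mean per line. Of 12 assembly factors of complex IV, 3 fell and 2 rose, against the same shares of all genes, and none was called with 1 mean per line: Cox17, a copper chaperone, measured 74.3, 76.1, 77.4 and 119.7 FPKM in mEpiSC and 140.5, 109.7, 134 and 142 FPKM in mESC (log2 −0.62, adjusted p = 0.0231), whereas Sco2, which brings copper to the oxidase, measured 6.63, 6.68, 5.42 and 7.79 FPKM in mEpiSC and 4.04, 5.02, 2.49 and 4.07 FPKM in mESC (log2 0.66, adjusted p = 0.0234). The Sco2 call was lost in replicates 1 to 3 (adjusted p = 0.054). Cox16 rose (log2 0.63, adjusted p = 0.0233) and Sco1 fell (log2 −0.52, adjusted p = 0.0129). Both kept their calls in replicates 1 to 3 (adjusted p = 0.02 and 0.0275). Lrpprc, which stabilizes mitochondrial mRNA, measured 31.7, 29.8, 26.4 and 35.0 FPKM in mEpiSC and 48.1, 42.1, 42.3 and 52.0 FPKM in mESC, without overlap (log2 −0.57, adjusted p = 0.00744). Of 9 assembly factors of complex I 1 fell, Ecsit (log2 −1.03, adjusted p = 0.00178), and of 4 factors and inhibitors of complex V 1 fell, Atpaf2 (log2 −0.40, adjusted p = 0.0308). Of 17 TCA cycle and pyruvate dehydrogenase genes, Idh2 rose (log2 0.56, adjusted p = 0.0239) and Pdhb fell (log2 −1.17, adjusted p = 0.0275). Their median was −0.13, and 70.6% of the differences were negative, against 71.4% for the subunit genes and 72% for the mitochondrial ribosome. Of 4 tested inner membrane carriers Ucp2 rose (log2 0.78, adjusted p = 0.0184). For all these lists the shares of all genes were 14.2% lower and 23.1% higher. With 1 mean per line 1 complex I factor was called, and 0 genes of the complex V, TCA cycle and carrier lists.

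Of 12 tested regulators of mitochondrial biogenesis 5 fell and 0 rose in mEpiSC (0 higher at an unadjusted p under 0.05), at a median of −0.37, against 14.2% of all genes lower and 23.1% higher. With 1 mean per line 1 of the 5 calls was left, in a list that includes the naive marker Esrrb. Nrf1, whose motif is marked in the promoters above, measured 15.6, 16.6, 16.4 and 18.0 FPKM in mEpiSC and 21.6, 23.3, 21.8 and 27.4 FPKM in mESC, and Gabpa, the DNA-binding subunit of GABP, 23.7, 25.3, 22.4 and 24.1 FPKM in mEpiSC and 33.6, 30.8, 31.6 and 34.4 FPKM in mESC. Neither gene's states overlapped (log2 −0.47, adjusted p = 0.0117, and −0.43, 0.00826). Tfam, which packages and transcribes mitochondrial DNA, measured 18.8, 22.8, 19.9 and 25.2 FPKM in mEpiSC and 26.5, 27.7, 26.7 and 35.9 FPKM in mESC (log2 −0.41, adjusted p = 0.0477), and Tfb1m, which methylates mitochondrial ribosomal RNA, fell by more (log2 −0.82, adjusted p = 0.0364). Esrrb, a nuclear receptor of the naive network that binds the receptor element shown above, was the fifth, at 1.83, 0.686, 0.736 and 0.451 FPKM in mEpiSC and 49.6, 36.5, 76.1 and 72.7 FPKM in mESC. It also counts among the 9 naive markers set against the labels, so its call is not separate from that check. Esrrb was under 1 FPKM in mEpiSC libraries 2 to 4 and passed the filter through its mESC values. Its relative Esrra, a known activator of respiratory genes, measured 8.21, 7.30, 7.35 and 9.44 FPKM in mEpiSC and 8.37, 8.62, 8.47 and 10.6 FPKM in mESC (log2 −0.14, adjusted p = 0.428), and Yy1 differed by 0.12 (adjusted p = 0.485). Gabpb1, Ppargc1b, Pprc1, Tfb2m and Polrmt were not called (adjusted p from 0.197 to 0.332), and the coactivator Ppargc1a was listed at 0.00407 to 0.0829 FPKM.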

How the data were processed

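Polyadenylated RNA of 4 mEpiSC and 4 mESC libraries was analysed. The authors deposited FPKM for each gene, with a 95% interval, in a table per library; per the submitters' processing notes TopHat2 2.0.6, Cufflinks 2.0.2 and mm9 were used. With annotation, options and strand setting not given in the sources used here, reads of overlapping or antisense genes cannot be told apart. Replicates were not pooled. Depth was inferred from value and interval, since Cufflinks' interval half-width shrinks with the fragments of a gene; 78.4% to 80.6% of genes under 100 fragments came out whole (tolerance 0.05).

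The 22987 symbols at 1 locus were used. Differences were fitted with limma 3.58.1 in R 4.3.3 (robust and trend options, with statmod 1.5.0) on log2(FPKM + 1), which understates changes of low genes, for genes reaching 1 FPKM in at least 4 libraries, with Benjamini-Hochberg adjustment over all of them; the fit was tested on simulated data. No count test was run on FPKM. Samples were grouped by the labels. Same-numbered libraries of the 2 states deviated together from their state means (correlations across genes 0.217, 0.153, 0.185 and 0.514 in the order of the numbers, each over 0.1). Pairs of different numbers reached 0.208 (mEpiSC 2 with mESC 3) and 0.192 (mEpiSC 3 with mESC 2), so numbers 2 and 3 are not told from each other by these values. The pairs mEpiSC 2 with mESC 1 (0.123) and mEpiSC 1 with mESC 2 (0.111) were over 0.1 as well. The values were centred within each state, so a library that stands apart in both states also makes the other numbers deviate together. No label states pairs, and these values do not establish them for replicates 1 to 3. The fit of all libraries was unpaired, and a fit with the replicate block was made beside it.

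The members, the gene lists and the settings were chosen with earlier results of these data known. Named genes were, per complex, up to 5 called members of largest change at a mean of at least 5 FPKM and up to 3 whose call differs without replicate 4; all complex II genes, paralog sets and tested regulators; the 3 most abundant members; and up to 2 called genes per other list. Other genes were named after their values were seen. Other settings were pseudocounts of 0.1 and 5, median ratio scaling, quantile normalization, no filter, a minimum mean of 5 FPKM, no trend, the block, 1 mean per line, replicates 1 to 3, replicate 4 as a batch term, removal of a loess trend with transcript length and leaving out each library; replicates 1 to 3 with median ratio scaling was added after the values were seen. Transcript lengths and windows of 50 bases shared between genes (both strands) come from GENCODE vM21 (GRCm38), matched by symbol for all 86 members, and promoter windows from RefSeq (GRCm38.p6).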

Additional observations from a re-analysis of the deposited data

Results flagged for a closer look

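Among the named subunit genes, 64 groups of 4 libraries were checked for a library far from the other 3 of its state, and 15 had one. Such a gap arises by chance in about 1 in 20 groups, but several of these genes were named because their call differs without replicate 4, so the 15 cannot be read against that rate. In 14 of the 15 it was replicate 4, 7 times in mEpiSC and 7 times in mESC, and each time the high one. Among the 46 tested subunit genes not named, 4 had such a gap in mEpiSC and 9 in mESC, each time with replicate 4 as the high library. Over all tested genes a high replicate 4 of this kind was found for 5.69% in mEpiSC and 4.43% in mESC.

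In mEpiSC replicate 4, Ndufb2 stood at 90.7 FPKM (45.4 to 49.1 in the other 3 mEpiSC libraries), Uqcr10 at 191 FPKM (136 to 145), Cox6b2 at 68.5 FPKM (11.5 to 18.5) and Cox7a2 at 202 FPKM (69.6 to 88.6). Cox8a stood at 443 FPKM (198 to 226), Sdhd at 158 FPKM (87.1 to 99.1) and Cox4i2 at 6.32 FPKM (0.325 to 1.18) in the same library.

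In mESC replicate 4, Ndufv1 stood at 92.4 FPKM (73.3 to 75.8 in the other 3 mESC libraries), Ndufb2 at 107 FPKM (63.0 to 67.2), Cyc1 at 289 FPKM (144 to 159.9) and Cox8a at 449 FPKM (246 to 273). Cox4i2 stood at 1.15 FPKM (0.360 to 0.442), Cox6a1 at 317 FPKM (232 to 237) and Cox7a2l at 87.9 FPKM (44.8 to 49.2). Cox7c was the exception, with 27.3 FPKM in mESC replicate 3 (21.9 to 22.4 in the other 3 mESC libraries).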

How the results depend on the processing

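Against 9 lower and 0 higher subunit genes in the fit of all libraries, the lower genes numbered 14 with median ratio scaling, 15 with quantile normalization, 15 with the length trend removed, 19 in replicates 1 to 3, 20 with the replicate block, 21 with replicate 4 as a batch term, 6 with no filter (5 of the 9, since Atp5a1, Cox7a1, Cox7c and Uqcr10 were lost), 7 at a mean of at least 5 FPKM, 8 with no trend, 1 with 1 mean per line and, in the setting added later, 31 in replicates 1 to 3 with median ratio scaling. In that last fit 22.4% of all genes were lower. The higher genes numbered 3 with the replicate block, 2 with replicate 4 as a batch term and 3 with the length trend removed, and 0 in the other settings. Leaving out 1 library gave 4 to 19 lower genes and 0 higher. Cox7b2, whose call carries no weight, is counted among the lower genes of every setting except a mean of at least 5 FPKM, where it was not tested. Cox8c, also listed at 0 in every mEpiSC library, is counted among the lower genes with no filter, and its call carries no weight either. Of all tested genes 4305 were called, 2752 at a mean of at least 5 FPKM and 1422 with 1 mean per line. The share of those calls that were higher in mEpiSC was 61.9%, against 49.8% with quantile normalization and 48.7% with the length trend removed. The causes of these changes were not tested, other than that 1 mean per line leaves 5 values in place of 8.

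Over 52 named genes and 21 settings, 895 of 1089 values kept their direction and their side of the threshold, 108 lost the call, 69 gained one and 17 changed sign. All 17 are of genes with no call. Sdhb changed to −0.0207 and Sdhc to −0.0131 with median ratio scaling, Sdhc to −0.0458 and Yy1 to −0.13 with the length trend removed, and Ndufa4l2 to −0.0153 with quantile normalization and −0.38 in replicates 1 to 3. In replicates 1 to 3 with median ratio scaling the values were −0.0374 for Sdhb, −0.0158 for Sdhc, −0.00529 for Cox7a2l and −0.45 for Ndufa4l2. Without 1 library they ranged from −0.0949 to 0.18 for Sdhb, −0.0581 to 0.18 for Sdhc, −0.16 to 0.39 for Cox7a2l, −0.15 to 0.0363 for Ndufa4 and −0.45 to 0.73 for Ndufa4l2.

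With 4 libraries of 3 and of 2 lines per state the line and the state are only partly separable, and the fits that treat libraries of a line as separate rest on that. FPKM of genes under 1 FPKM or with much shared sequence carry little information on the state.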
